A study of Mus musculus with 6 samples.

Results

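Fragments of the mitochondrial tRNA for histidine (mt-tRNA-His, gene mt-Th) made up between 23.6% and 37.3% of the reads, in each library, of the tRNA-derived fragments (tRFs) of mitochondrial origin (mt-tRFs) that were listed as decreased in pancreatic islets of *db/db* mice. They were taken as the rows of that list whose parent is the mitochondrial tRNA-His with the anticodon GTG, and there were 26 of them among 170 listed tRFs, of which 147 came from mitochondrial tRNAs. All 26 matched 1 tRNA. Islets of 3 *db/db* mice (labelled BKS(D)-Leprdb/JOrlRj, homozygous for a mutation of the leptin receptor in every tissue) and of 3 heterozygous *db/+* mice (labelled BKS(D)-Leprdb/+/JorlRj, with a functional copy of the receptor) were compared. The study's methods assign mice of this age to another colony than these labels do, and which of them is right was not settled. The mice were males of 16 weeks on chow diet, and each library held the small RNA of the handpicked islets of 1 mouse. The *db/db* mice are labelled as pre-diabetic, while the study's text calls them diabetic and describes fasting hyperglycaemia. Before library construction the RNA was deacylated, the ends of fragments were converted into forms that adaptors can join, and methyl groups that block reverse transcription were removed. The table holds no mRNA, so islet markers could not be checked. In whole islets, fewer cells of a type and less of a fragment per cell cannot be told apart.

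A tRNA is cut out of a longer mitochondrial transcript at both ends, receives the bases CCA at its 3′ end, to which the amino acid is attached, and is folded into stems and loops. Cleavage of a tRNA gives 5′ fragments, which hold the start of the tRNA, and 3′ fragments, which reach the CCA. The tRNA for histidine is unusual because it carries an extra G before its first base, and the enzyme that charges it with histidine recognises this G. In the cytosolic tRNA-His of yeast and mammals the G is not encoded and is added by the enzyme Thg1. Mitochondrial tRNA-His decodes histidine codons in the mRNAs of the respiratory chain subunits.

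The gene mt-Th is annotated on chromosome M of GRCm38 from 11546 to 11612 on the plus strand (67 nt, a mitochondrial tRNA gene annotated as a single exon), between the protein-coding gene mt-Nd4 (10167 to 11544) and the tRNA gene mt-Ts2 (11613 to 11671). The 5′ fragments carry 2 bases more at their start than the annotated gene. The second of these, next to the gene, is position 1 in the authors' numbering and was placed at 11545, between the annotated genes. It completes an acceptor stem of 7 pairs (positions 1 to 7 with 61 to 67). Its identity comes from the fragments alone, since the genome sequence at 11545 was not read here. The genome position of the base before it rests on this placement. The last encoded base is then position 68, and the CCA is positions 69 to 71. The gene and its CCA are shown to locate the cuts, with the anticodon (positions 31 to 33) and the CCA in capitals.
mt-Th (position 2 to 71): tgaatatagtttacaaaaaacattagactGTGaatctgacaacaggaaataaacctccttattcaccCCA

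The 26 fragments fell into 14 5′ fragments, 11 3′ fragments and 1 internal fragment, and were 31 to 52 nt long. The authors' annotation types all 11 3′ fragments as internal. They were classed as 3′ here because they end in the CCA or 1 base short of it. All 14 5′ fragments began with a base before position 1, numbered 0, and no listed 5′ fragment of mt-Th began at position 1. In 12 of the 14 this base was G and in 2 it was T. The base of the genome there is the last base of mt-Nd4, which matched the 2 fragments with T, and the 12 others differed from it by T0G (genome base, position counted from the start of the tRNA as above, fragment base). Among the 81 listed 5′ fragments of mitochondrial tRNAs, 15 began before position 1, and 1 of these 15 was not from mt-Th. The 3 most abundant 5′ fragments, and the one of 48 nt because it had the smallest decrease, are shown with the extra base in capitals. Those of 52 nt differ from each other only in that base, and those with G differ in where they end.
5′ fragment of 52 nt with G: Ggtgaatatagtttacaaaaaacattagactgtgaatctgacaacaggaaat
5′ fragment of 52 nt with T: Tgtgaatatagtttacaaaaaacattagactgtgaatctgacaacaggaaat
5′ fragment of 45 nt with G: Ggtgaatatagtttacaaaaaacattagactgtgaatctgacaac
5′ fragment of 48 nt with G: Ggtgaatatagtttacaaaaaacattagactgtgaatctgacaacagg

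Of the 11 3′ fragments, 9 ended in the whole CCA and 2 were 1 base short of it. The commonest 3′ fragments and the shortest one are shown with the CCA in capitals, and the internal fragment has no base in capitals because it holds neither end of the tRNA.
3′ fragment of 46 nt: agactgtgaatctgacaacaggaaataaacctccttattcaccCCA
3′ fragment of 49 nt: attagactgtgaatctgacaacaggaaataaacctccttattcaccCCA
3′ fragment of 31 nt: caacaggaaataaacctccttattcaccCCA
internal fragment of 38 nt: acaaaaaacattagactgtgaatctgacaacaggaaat

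The 5′ fragments ended at 12 positions, from 36 to 42, from 44 to 47 and at 51, and the 3′ fragments began at 9 positions, from 21 to 26, at 28, at 40 and at 41. The anticodon stem was formed by positions 24 to 28 and 36 to 40 (5 pairs), around the anticodon loop at positions 29 to 35. No listed fragment was cut within this loop, and 24 of the 26 fragments held the whole anticodon. The end at position 51 lay in the loop at positions 49 to 56 that the longest run of pairs in the T arm closed (positions 45 to 48 with 57 to 60). A pyrimidine (C or T) followed by A occurred 12 times between positions 1 and 71 of the tRNA (letters CA or TA, on the strand of the tRNA). Of these junctions 6 were cut in listed fragments, those after positions 13, 22, 25, 41, 44 and 51. Such cuts were the only internal cuts of 10 fragments, of which 5 were 5′ fragments, 4 were 3′ fragments and 1 was internal. The other 16 fragments, 9 from the 5′ end and 7 from the 3′ end, were cut at other bases. A 3′ end 1 base short of the CCA was not counted as a cut.

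Levels are given as normalized reads, the raw reads of a library divided by the size factor that the authors' mean levels imply for it. Raw reads of mt-Th fragments numbered 392, 1796 and 2168 in *db/db* replicates 1, 2 and 3, against 4539, 7660 and 8615 in *db/+* replicates 1, 2 and 3, with size factors of 0.509, 1.01 and 1.20 against 1.68, 1.59 and 0.668. Because the list was chosen by the authors for a decrease on these same libraries, a lower level in *db/db* islets is what the selection required. The differences in level are therefore given as a description, and their p-values are not independent evidence. The libraries are not batched in the labels. The *db/+* replicate 3 stood apart from the other *db/+* libraries in the levels below, so values without it are given beside those that rest on it.

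Summed over the 26 fragments, the level was 770.2, 1787 and 1802 normalized reads in *db/db* replicates 1, 2 and 3, against 2703, 4807 and 12896 in *db/+* replicates 1, 2 and 3. The highest *db/db* mouse was under the lowest *db/+* mouse, and *db/+* replicate 3 was far above the other *db/+* mice. The difference of the means of log2(sum + 1) was -2.03 (two-sided exact permutation test, p = 0.1, the smallest that 3 against 3 allow), and -1.41 without *db/+* replicate 3. The 5′ fragments summed to 693.5, 1455 and 1509.8 normalized reads in *db/db* mice and to 2011, 3629 and 10463 in *db/+* mice (difference of mean log2(sum + 1) -1.88, exact permutation p = 0.1; -1.23 without *db/+* replicate 3). The 3′ fragments summed to 72.7, 314.4 and 284.3 normalized reads in *db/db* mice and to 671.8, 1095 and 2127 in *db/+* mice (difference -2.63, exact permutation p = 0.1). That difference was -1.95 without *db/db* replicate 1 and -2.19 without *db/+* replicate 3. In both classes the groups did not overlap. When the nuclear tRFs of the list were made equal between libraries, although they were selected as decreased too, the 3 differences were -0.71, -0.56 and -1.31 for all, 5′ and 3′ fragments (exact permutation p = 0.5, 0.8 and 0.3).

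**Figure D1:**
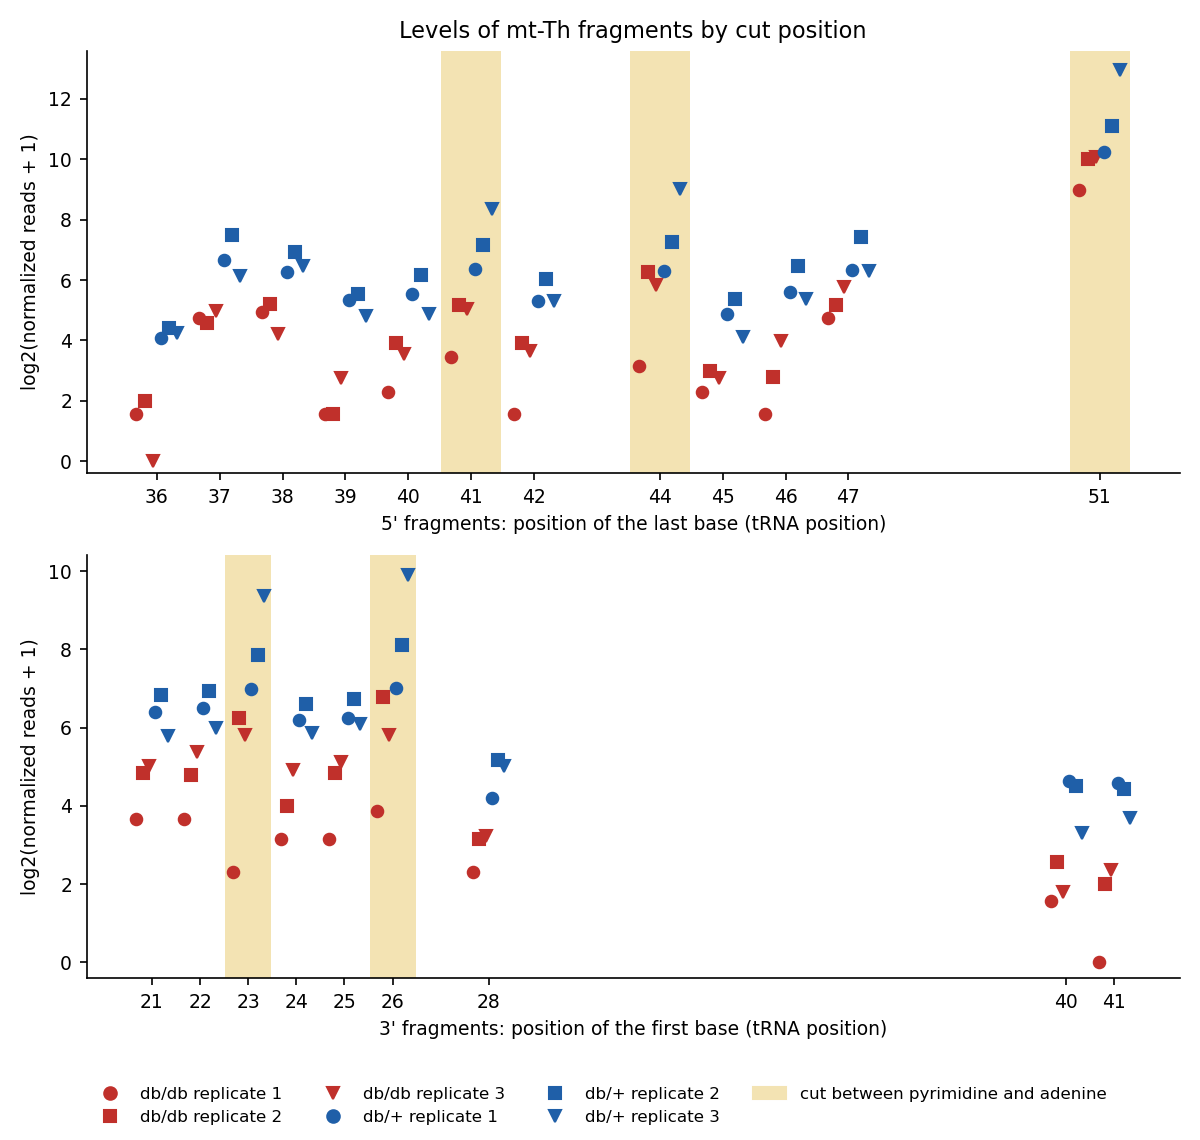
Level of each mt-Th fragment on a log2(normalized reads + 1) scale, by the position of the last base of 5′ fragments (upper panel, fragments with G) and of the first base of 3′ fragments (lower panel, fragments with the whole CCA), with 1 point for each library, *db/db* in red and *db/+* in blue. Shaded positions are cuts between a pyrimidine and adenine, and there *db/+* replicate 3 (blue triangle) is the highest library at every position, while it is the highest at none of the others.

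Taken one by one, all 26 fragments passed edgeR's quasi-likelihood test with a fall to 1/2 of the *db/+* level or lower and a Benjamini-Hochberg adjusted p no higher than 0.05, where 97.6% of all 170 listed tRFs did, so that the count sets mt-Th no further apart than the list itself. In 25 of the 26 the highest *db/db* library was under the lowest *db/+* library, against 94.7% of the list. The log2 fold changes ran from -3.68 to -1.51 with a median of -2.35, and the median over all 170 was -2.42. The median was -2.29 for the 14 5′ fragments and -2.40 for the 11 3′ fragments. Leaving out each library in turn, 18 of the 26 passed in all 6 fits, and the number passing was 21 to 26.

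The 5′ fragment of 52 nt with G, which spans the tRNA from its extra base to the T loop, was the most abundant. It had 501.0, 1038 and 1081 normalized reads in *db/db* replicates 1, 2 and 3, against 1199, 2177 and 7884 in *db/+* replicates 1, 2 and 3. Its groups did not overlap, although the highest *db/db* mouse and the lowest *db/+* mouse were close. It took 65.1%, 58.1% and 59.96% of the mt-Th reads in the *db/db* libraries and 44.3%, 45.3% and 61.1% in the *db/+* libraries. The log2 fold change was -2.10 (SE 0.80, adjusted p = 0.0232 from edgeR). It was -0.95 without *db/+* replicate 3, less than 2-fold (adjusted p = 0.0408 from edgeR), and without *db/db* replicate 1, 2 or 3 edgeR's adjusted p was 0.10, 0.0601 and 0.0665, above the threshold.

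The 5′ fragment of 52 nt with T, the second in level, had 78.6, 160.2 and 187.9 normalized reads in *db/db* mice and 172.1, 330.1 and 1251 in *db/+* mice. It was the fragment of mt-Th whose groups overlapped, since *db/db* replicate 3 was above *db/+* replicate 1. Its log2 fold change was -2.03 (SE 0.86, adjusted p = 0.0352 from edgeR) and -0.81 without *db/+* replicate 3 (adjusted p = 0.233 from edgeR). Without *db/db* replicate 1, 2 or 3 it did not pass either (adjusted p = 0.113, 0.0889 and 0.0694).

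The share of T among the reads of both 52-nt fragments was examined after the levels had been seen, and is given without a test. It was 13.6% (40 of 295 reads, exact Clopper-Pearson 95% interval 9.87% to 18.0%), 13.4% (161 of 1204, 11.5% to 15.4%) and 14.8% (226 of 1526, 13.1% to 16.7%) in *db/db* replicates 1, 2 and 3. It was 12.6% (289 of 2302, 11.2% to 13.98%), 13.2% (526 of 3994, 12.1% to 14.3%) and 13.7% (836 of 6103, 12.8% to 14.6%) in *db/+* replicates 1, 2 and 3. The group means were 13.9 ± 0.782% in *db/db* and 13.1 ± 0.572% in *db/+* mice (SD, n = 3 each). The share thus lay between 12.6% and 14.8% in libraries in which both fragments together ran from 579.6 to 9136 normalized reads, and the G that differs from the genome made up the rest. At 42 nt, the only other length at which both forms were listed, T was found in 0 of 5, 6 of 41 and 3 of 41 reads in *db/db* mice and in 17 of 153, 45 of 270 and 55 of 275 reads in *db/+* mice. The 0 of 5 reads allow a share of up to 52.2% by the exact Clopper-Pearson 95% interval, so this length says little about *db/db* replicate 1. Intervals and limits of this kind cover counting error only, and the sources used here do not state whether reads sharing a molecular identifier were counted once.

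The 5′ fragment of 45 nt ended between the anticodon arm and the T arm. It had 7.86, 76.6 and 55.7 normalized reads in *db/db* mice and 77.4, 153.8 and 511.9 in *db/+* mice, with *db/db* replicate 2 just below *db/+* replicate 1. The log2 fold change was -2.38 (SE 0.93, adjusted p = 0.0264 from edgeR), and -1.27 without *db/+* replicate 3, where it did not pass (adjusted p = 0.0657 from edgeR). It also did not pass without *db/db* replicate 1 or 3 (adjusted p = 0.0772 and 0.0570 from edgeR). The 5′ fragment of 48 nt had the smallest decrease, with 25.5, 34.8 and 54.0 normalized reads in *db/db* mice and 79.8, 172.0 and 77.8 in *db/+* mice. Its log2 fold change of -1.51 (SE 0.63, adjusted p = 0.0346 from edgeR) was -1.03 without *db/+* replicate 2, and it did not pass without that library or without *db/db* replicate 1 or 2 (adjusted p = 0.215, 0.0772 and 0.104 from edgeR).

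Among the 3′ fragments, those that began at positions 26 and 23 led. The 3′ fragment of 46 nt had 13.8, 109.5 and 55.7 normalized reads in *db/db* mice and 129.2, 278.0 and 959.5 in *db/+* mice. The log2 fold change was -2.91 (SE 0.97, adjusted p = 0.0135 from edgeR), with -1.75 without *db/+* replicate 3 and -3.68 without *db/db* replicate 2. The groups did not overlap, and the spread within each was several-fold. The 3′ fragment of 49 nt had 3.93, 75.6 and 54.9 normalized reads in *db/db* mice and 125.1, 231.0 and 663.1 in *db/+* mice. Its log2 fold change was -2.89 (SE 0.99, adjusted p = 0.0153 from edgeR), and -1.95 without *db/+* replicate 3. At both start positions a form that lacked the last A was listed. The short form made up 11.9 ± 2.56% of the reads that began at position 26 in *db/db* and 10.3 ± 1.44% in *db/+* mice (SD, n = 3 each), but the *db/db* replicate 1 had only 8 reads there. At position 23 it was 4 of 6, 5 of 81 and 17 of 83 reads in *db/db* mice, against 27 of 237, 69 of 437 and 60 of 503 in *db/+* mice.

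The internal fragment of 38 nt was cut between a pyrimidine and A at both ends and had the largest decrease. It had 3.93, 17.9 and 8.31 normalized reads in *db/db* mice and 20.2, 84.1 and 305.4 in *db/+* mice, and the groups did not overlap. The log2 fold change was -3.68 (SE 0.98, adjusted p = 0.00517 from edgeR), -2.28 without *db/+* replicate 3 and -4.37 without *db/db* replicate 2. The shortest fragment, the 3′ fragment of 31 nt, had 0, 2.99 and 4.16 normalized reads in *db/db* mice and 23.2, 20.7 and 11.98 in *db/+* mice. Its log2 fold change was -2.72 (SE 0.69, adjusted p = 0.00453 from edgeR). Of the remaining 18 fragments, the 5′ fragment of 42 nt with G had the highest mean over the 6 libraries. It was named after its value was seen. Its level was 25.4 ± 13.6 in *db/db* and 183.8 ± 129.5 normalized reads in *db/+* mice (SD, n = 3 each), with 329.3 in *db/+* replicate 3. The log2 fold change of this fragment was -2.81 (SE 0.79, adjusted p = 0.00633 from edgeR), and -2.08 without *db/+* replicate 3.

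**Figure D2:**
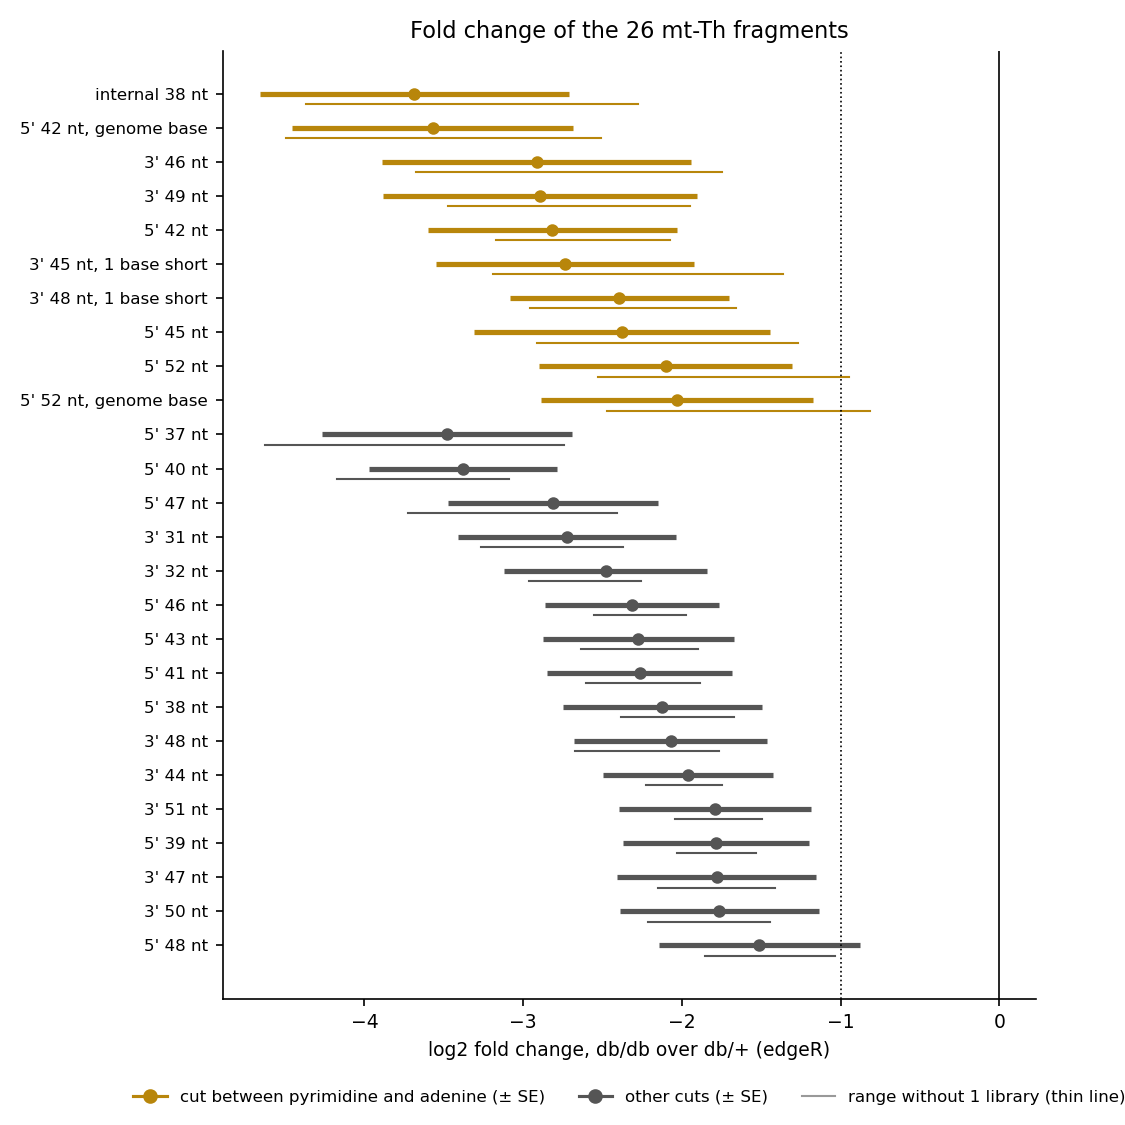
Log2 fold change of each of the 26 mt-Th fragments, *db/db* over *db/+*, from edgeR, with bars of ± SE and a thin line below each for the range when 1 library was left out. All 26 estimates lie to the left of the dotted line of a 2-fold decrease. For the 52-nt fragments the thin line crosses it, up to -0.95 and -0.81.

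Cuts at neighbouring positions differed in which *db/+* library was highest, as described after the levels had been seen and without a test. In all 10 fragments cut between a pyrimidine and A, *db/+* replicate 3 was the highest of the 6 libraries. In none of the 16 other fragments was it the highest, and in 12 of the 16 it was the lowest *db/+* library. Summed, the 10 fragments had 628.7, 1534 and 1501 normalized reads in *db/db* replicates 1, 2 and 3, against 1846, 3493 and 12198 in *db/+* replicates 1, 2 and 3. The 16 others had 141.5, 252.7 and 301.8 in *db/db* mice, against 857.0, 1315 and 697.6 in *db/+* mice. The *db/+* replicate 3 was thus 4.57 times the mean of *db/+* replicates 1 and 2 in the 10 fragments and 0.642 times that mean in the 16 others. Both kinds of fragment were lower in *db/db* mice, with differences of -1.92 and -2.06 on the log2(sum + 1) scale. Without *db/+* replicate 3 the differences were -1.17 and -2.26. The difference in the 16 other fragments was therefore as large without this library, while that of the 10 shrank.

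The same contrast held within each end of the tRNA. Among 5′ fragments, *db/+* replicate 3 was at 4.60 times the mean of *db/+* replicates 1 and 2 for cuts between a pyrimidine and A and at 0.636 times for other cuts. Among 3′ fragments the ratios were 4.24 and 0.651. The 10 fragments took 81.6%, 85.9% and 83.3% of the mt-Th reads in the *db/db* libraries and 68.3%, 72.7% and 94.6% in the *db/+* libraries, so that the groups overlapped only through *db/+* replicate 3. The part of RNA quality, handling or sequencing in this was not tested.

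**Figure D3:**
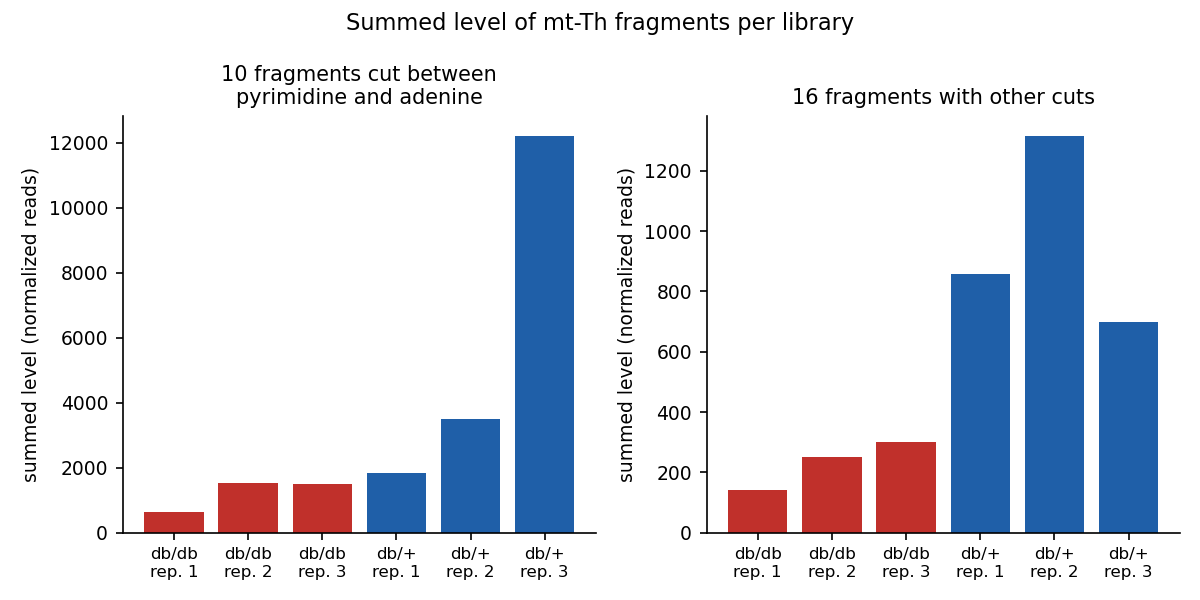
Summed level of the 10 mt-Th fragments cut between a pyrimidine and adenine (left) and of the 16 with other cuts (right), in normalized reads, with 1 bar for each library. The vertical axes differ. The *db/+* replicate 3 reaches 12198 normalized reads on the left, above every other library, and 697.6 on the right, the lowest of the *db/+* libraries but above every *db/db* library.

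At 2 junctions a listed 5′ fragment ended just before the first base of a listed 3′ fragment. Whether such pieces came from 1 cut was not tested, and these pairs were picked after the values had been seen. The 5′ fragment of 40 nt ends at position 39, where the 3′ fragment of 32 nt follows. The 5′ piece had 1.96, 1.99 and 5.82 normalized reads in *db/db* mice and 39.3, 45.8 and 26.9 in *db/+* mice. The 3′ piece had 1.96, 4.98 and 2.49 in *db/db* mice and 23.8, 22.0 and 8.98 in *db/+* mice. Their log2 fold changes were -3.38 (SE 0.59, adjusted p = 0.00257 from edgeR) and -2.48 (SE 0.64, adjusted p = 0.00480 from edgeR). At the next junction the log2 fold changes were -2.27 (SE 0.58) for the 5′ fragment of 41 nt and -2.72 (SE 0.69) for the 3′ fragment of 31 nt. Both pieces of each pair were lower in every *db/db* mouse than in every *db/+* mouse, as were 94.7% of all listed tRFs. All other cuts were seen from 1 side only in the list.

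Shares within a library do not depend on the scaling between libraries. Throughout, mt-Th reads are the reads of the listed mt-Th fragments only. Fragments of mt-Th outside the list are not counted, so these are not shares of all tRNA-His fragments. The selection for a decrease on these same libraries may also have shaped them. The 5′ fragments took 90.1% (exact Clopper-Pearson 95% interval 86.7% to 92.8%), 81.4% (79.5% to 83.2%) and 83.8% (82.1% to 85.3%) of the mt-Th reads in *db/db* replicates 1, 2 and 3. They took 74.4% (73.1% to 75.7%), 75.5% (74.5% to 76.4%) and 81.1% (80.3% to 82.0%) in *db/+* replicates 1, 2 and 3. The groups did not overlap, but *db/db* replicate 2 and *db/+* replicate 3 differed by less than their counting error. The internal fragment counts among these reads, at 1.00% in *db/db* replicate 2 and 2.37% in *db/+* replicate 3. In the balance below, which leaves it out, the order of these 2 libraries is reversed. The means were 85.1 ± 4.47% in *db/db* and 77.0 ± 3.62% in *db/+* mice (SD, n = 3 each), a difference of 8.07 percentage points (two-sided exact permutation test, p = 0.1, adjusted p = 0.175 over the 7 single values compared). Without *db/+* replicate 3 the difference was 10.1 points. With 3 mice against 3 the permutation test cannot go below 0.1.

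The balance of 5′ to 3′ fragments was also set beside that of the other mitochondrial tRNAs, as log2((5′ sum + 1)/(3′ sum + 1)). For mt-Th it was 3.24, 2.21 and 2.40 in *db/db* mice and 1.58, 1.73 and 2.30 in *db/+* mice, so that *db/db* replicate 2 lay between *db/+* replicates 2 and 3. The difference was 0.75 (SE 0.46, adjusted p = 0.603 from limma over the 11 mitochondrial tRNAs with both classes). None of the 11 passed (0% called), 0 had an unadjusted p under 0.05, and limma without trend called 0 as well. A shift of the mt-Th balance between the groups was therefore not shown, and the interval implied by its SE holds both no shift and a shift of more than 1 on the log2 scale.

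The most used end of the 5′ fragments, position 51, held 83.6%, 82.4% and 84.0% of their reads in *db/db* mice and 68.2%, 69.1% and 87.3% in *db/+* mice. The *db/db* libraries lay close together (83.3 ± 0.867%, SD, n = 3), and the *db/+* libraries spread around them (74.9 ± 10.8%, SD, n = 3). The difference of 8.47 percentage points did not exceed this spread (exact permutation p = 0.4, adjusted p = 0.4), and was 14.7 points without *db/+* replicate 3 and 5.12 and 5.58 points without *db/+* replicates 1 and 2. The mean length of the mt-Th reads was 50.0, 49.7 and 50.1 nt in *db/db* mice and 48.4, 48.5 and 49.96 nt in *db/+* mice, a difference of 1.02 nt (exact permutation p = 0.2, adjusted p = 0.233). Without *db/+* replicate 3 the difference in mean length was 1.52 nt.

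Fragments of mt-Th made up 37.3%, 31.7% and 36.9% of the reads of all listed mt-tRFs in *db/db* replicates 1, 2 and 3, and 23.6%, 30.1% and 36.9% in *db/+* replicates 1, 2 and 3. The groups overlapped, with means of 35.3 ± 3.13% in *db/db* and 30.2 ± 6.64% in *db/+* mice (SD, n = 3 each; difference 5.13 percentage points, exact permutation p = 0.2, adjusted p = 0.233). The difference was 1.84 points without *db/+* replicate 1 and 8.48 without *db/+* replicate 3. A decrease of mt-Th fragments beyond that of the other listed mt-tRFs was not seen in these shares.

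**Figure D4:**
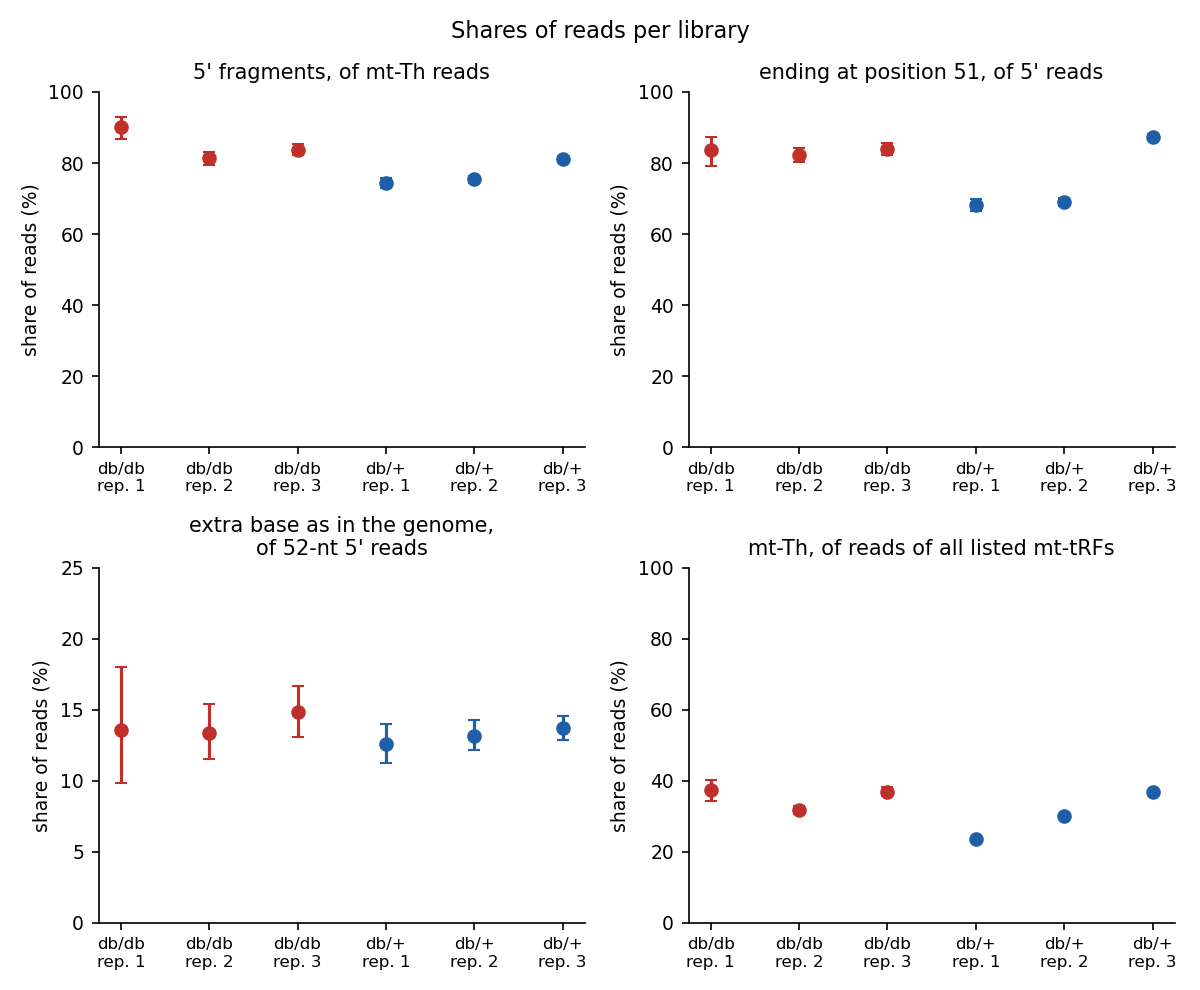
Shares of reads in each library with exact Clopper-Pearson 95% intervals, *db/db* in red and *db/+* in blue: 5′ fragments among mt-Th reads, fragments ending at position 51 among 5′ reads, fragments with the genome's base before position 1 among 52-nt 5′ reads (axis to 25%), and mt-Th among the reads of all listed mt-tRFs. The share with the genome's base lies between 12.6% and 14.8% in all 6 libraries, while in the other 3 shares *db/+* replicate 3 lies above the other *db/+* libraries by more than the intervals.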

How the data were processed

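Small RNA of islets was sequenced by the authors from miRNeasy extracts treated with the rtStar pretreatment kit, with QIAseq miRNA libraries, 1 per mouse. For the authors' annotation, mitotRNAdb, GtRNAdb and tRNAscan-SE were used, and a tRF needed 2 reads in a sample. The processing notes name FastQC. The sources used here name no aligner and no genome build. The table analysed holds the 170 tRFs called decreased. Its deposited counts are raw reads per tRF and library. The deposited mean signal per tRF is the authors' mean of reads divided by DESeq2 size factors, which were solved from it with a largest misfit of 2.16e-12. The table also holds the authors' fold changes, standard errors, test statistics and p-values, which were not used. Sequencing depth cannot be read from a list of selected tRFs.

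Each tRF was tested with edgeR 4.0.16 (R 4.3.3, quasi-likelihood test, library sizes from the size factors, no TMM, no filter), with Benjamini-Hochberg adjustment over the 170. The standard error was the fold change over the root of the F statistic. Two-sided exact permutation tests (3 against 3) were run on sums (log2 with a pseudocount of 1), shares and lengths, and the 5′ to 3′ balance with limma 3.58.1 with trend. Positions in a tRNA come from the authors' annotation of each tRF. The mt-Th fragments were checked at these positions against GENCODE M21 (GRCm38), which also gave the genome coordinates. Only the edgeR test and a limma fit without trend were tried on simulated data. In the edgeR simulation most tRFs were unchanged, unlike in this list, so it does not show how the calls behave here. The fragments named are the 5 with the highest mean, the most abundant of each class and of each extra base, the longest, the shortest, and those with the largest and smallest decrease (8 in all); others are named as picked later. The members, rules and lists were chosen with earlier results of these data known. Alternatives were a mean level of at least 10, a pseudocount of 5, DESeq2 1.42.0, stricter thresholds, limma without trend, the replicate block, rescaling to the nuclear tRFs, omission of the most abundant fragment and of each library. The split by kind of cut and the T share were added after seeing the data. Replicates are separate mice. Python 3.11.15 was used with NumPy 2.4.6, pandas 2.3.3, SciPy 1.17.1 and matplotlib 3.10.9.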

Additional observations from a re-analysis of the deposited data

How the results depend on the processing

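The number of mt-Th fragments that passed edgeR's test was 26 of 26, and 26 by DESeq2, 25 of the 25 with a mean of at least 10, and 20 at a decrease of at least 4-fold. It was 16 with the adjusted p limited to 0.01 and 21 to 26 when 1 library was left out. With the nuclear tRFs of the list made equal between libraries it was 0 by edgeR, with 8 at an unadjusted p under 0.05, and all 26 log2 fold changes stayed below 0 (median -1.09). That rescaling moved the median of all 170 listed tRFs by 1.26, to -1.16, and since the nuclear tRFs were listed as decreased it removes by construction what both share. With the replicate number as a block, 25 passed and the 5′ fragment of 48 nt did not (adjusted p = 0.0570 from edgeR). The numbers do not count as a pairing, because the correlations of same-numbered libraries were 0.21, -0.26 and -0.22, and 1 of the 3 *db/db* libraries correlated best with its own number. The summed levels, shares, mean length and balance kept their direction under every alternative run on them. None of the exact tests could pass 0.05, and the adjusted p of the balance from limma was 0.266 to 0.985. Leaving out 1 library, the difference of the summed level ran from -2.54 to -1.41 on the log2 scale and that of the balance from 0.44 to 0.96. The share of 5′ reads with an extra base is 100% in every library because no other 5′ fragment of mt-Th is listed. Low counts in *db/db* replicate 1, with 392 reads of mt-Th, limit every share there.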
